A study of Homo sapiens with 8 samples.

Results

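Heat shock and chaperone genes were taken as the 88 protein-coding genes of RefSeq GRCh38 whose symbols begin with HSPA, HSPB, HSPD, HSPE, HSPH, HSP90, DNAJA, DNAJB, DNAJC or CCT2 to CCT8, together with TCP1, CDC37, AHSA1 and HSF1, out of 20033 protein-coding genes. They were followed through ChIP-seq for RBBP4, a histone-binding subunit shared by several chromatin complexes, and for the histone acetyltransferase P300. The cells were NCI-H69, a human small cell lung cancer line, which had received either an siRNA to CSNK2B, the regulatory subunit of the protein kinase CK2, or a non-targeting siRNA (the control) and were fixed at 48 h. Each antibody was represented by 1 immunoprecipitated library per siRNA, so 4 of the 8 libraries were used, and the 4 input libraries were not analysed here. The labels give the antibodies different batch names, so RBBP4 and P300 values were never set against each other as levels. A region was assigned to a gene when it overlapped the gene's span extended by 3000 bp on both sides.

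With 1 library per arm there was no replicate and no test of the conditions: every difference below is between 2 libraries. The tables hold only regions with p under 0.05 in the authors' comparison, so a gene with no listed region was not shown to be unchanged. They state how far the libraries differ, not how much RBBP4 or P300 was bound outside those regions. Which arm a column belongs to rests on the column names, and no value of CSNK2B itself was at hand to check the knockdown. The RPKM value of 1 read implied a total of 1207945 reads for RBBP4 with the CSNK2B siRNA and 833181 with the control. For P300 the totals were 946392 and 1092789. These totals were taken as the reads over the tested regions. Folds are ratios of read density after scaling to those totals, each with a 95% exact (Clopper-Pearson) binomial interval that covers counting error only. The authors' own fold changes follow another scaling, which lies above this one by a factor of 1.5 for RBBP4 and at 0.736 of it for P300. Regions were listed and called on the authors' comparison, so their scaling also bears on the counts of higher and lower regions. How far it does was not tested. A region is called here when its adjusted p in the authors' deposited table was under 0.05. The tables do not report expression, so the labelled cell type could not be checked from them.

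Chaperones bind unfolded or partly folded proteins and keep them from aggregating. HSP70 proteins work in cycles of ATP hydrolysis that J-domain proteins start and exchange factors end, HSP90 acts later on clients such as kinases and receptors, and the ring-shaped CCT complex folds actin and tubulin. When proteins misfold, HSF1 binds heat shock elements, arrays of inverted GAA units, and raises transcription of many of these genes, while an ER stress element serves the genes of the endoplasmic reticulum. CDC37, which delivers kinases to HSP90, is a known substrate of CK2.

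The promoters where the RBBP4 reads fell show both kinds of chaperone gene, those with a heat shock element and those without. The sequences are the 250 bases before a RefSeq start in gene orientation, from GRCh38.p14, with capitals for a heat shock element of 3 units (GAA, TTC and GAA, or TTC, GAA and TTC, each 2 bases from the next) or a CCAAT box on either strand. CCT7 and CCT3 were chosen for the many reads in their start regions (75 and 64 over both libraries), and the other 4 after the matches were seen, because a listed RBBP4 region overlaps the promoter window that holds the element. For HSPD1 only 30 bases around the element are given.
CCT7, plus strand, chr2:73234058-73234307: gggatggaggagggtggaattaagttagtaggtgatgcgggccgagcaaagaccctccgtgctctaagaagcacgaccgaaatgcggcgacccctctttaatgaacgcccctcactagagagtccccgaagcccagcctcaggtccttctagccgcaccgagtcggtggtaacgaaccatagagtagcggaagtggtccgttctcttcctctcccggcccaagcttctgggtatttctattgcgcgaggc
CCT3, minus strand, chr1:156338293-156338542: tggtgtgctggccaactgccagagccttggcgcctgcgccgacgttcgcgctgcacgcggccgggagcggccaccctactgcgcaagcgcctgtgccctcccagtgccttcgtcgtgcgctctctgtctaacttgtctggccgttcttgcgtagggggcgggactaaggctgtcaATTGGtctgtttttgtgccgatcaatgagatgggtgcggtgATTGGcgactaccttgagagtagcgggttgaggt
HSPA6, plus strand, chr1:161524290-161524539: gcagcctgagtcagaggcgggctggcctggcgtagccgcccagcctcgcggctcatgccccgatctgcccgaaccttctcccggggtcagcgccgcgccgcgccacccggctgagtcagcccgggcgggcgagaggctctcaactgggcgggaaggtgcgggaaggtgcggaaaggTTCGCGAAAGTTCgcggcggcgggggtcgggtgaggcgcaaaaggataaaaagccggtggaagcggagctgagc
DNAJB6, plus strand, chr7:157336754-157337003: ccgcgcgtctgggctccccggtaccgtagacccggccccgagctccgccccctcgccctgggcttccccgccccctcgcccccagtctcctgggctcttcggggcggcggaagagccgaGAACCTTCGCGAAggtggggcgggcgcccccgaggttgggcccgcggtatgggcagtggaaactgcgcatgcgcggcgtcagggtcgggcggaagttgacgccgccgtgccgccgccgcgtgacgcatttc
HSP90AA1, minus strand, chr14:102087045-102087294: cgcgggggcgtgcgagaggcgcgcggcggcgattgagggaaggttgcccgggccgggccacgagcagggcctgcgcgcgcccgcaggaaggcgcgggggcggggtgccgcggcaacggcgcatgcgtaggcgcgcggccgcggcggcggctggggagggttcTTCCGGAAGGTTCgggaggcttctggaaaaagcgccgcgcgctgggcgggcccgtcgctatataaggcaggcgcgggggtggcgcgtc
HSPD1, minus strand, chr2:197500061-197500090: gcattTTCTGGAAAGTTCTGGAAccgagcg

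Promoter windows (250 bases before to 50 after a start) were at hand for 79 of the 88 genes. The 3-unit element was found in windows of 7 of the 79 (8.86%), namely DNAJA1, DNAJB6, HSP90AA1, HSP90AB1, HSPA6, HSPA8 and HSPD1, against 0.537% of the 15842 protein-coding genes with a window. The 2-unit form, GAANNTTC or TTCNNGAA, which every 3-unit match also contains, was in 32.9% of them against 14.9%. The ER stress element (CCAAT and CCACG with 9 bases between them) was in the windows of HSPA5 and HSP90B1 (2.53% against 0.133%). CCAAT boxes (CCAAT, 41.8% against 42.1%) and GC boxes (GGGCGG, 70.9% against 64.3%) were about as frequent as elsewhere, and median GC content was 64.0% in the windows of these genes and 62.3% in all windows. Among the 32 genes with a window overlapped by a listed RBBP4 region, 4 held a 3-unit element in such a window, 7 a CCAAT box (21.9%) and 0 the ER stress element. Of the other 47 genes, 2 held a 3-unit element, 26 a CCAAT box and 2 the ER stress element in any window. For the 32 genes only the overlapped windows were searched, so their shares are not like those over any window. The same shares for overlapped windows of all protein-coding genes were not counted. The windows with the element in HSPA8, HSP90AB1 and DNAJA1 were not overlapped by a listed region. These matches describe letters in fixed windows and do not locate bound factors.

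RBBP4 reads were higher with the CSNK2B siRNA at most listed regions of chaperone genes, as at most listed regions of all protein-coding genes. Of the 35154 listed RBBP4 regions, 84 lay at 51 of the 88 genes (58.0%, against 51.6% of all protein-coding genes). Of these 84, 74 were higher with the CSNK2B siRNA (54 called) and 10 were lower (2 called). The share higher was 88.1%, against 77.3% of the listed regions at all protein-coding genes. Both shares depend on the authors' scaling, which puts RBBP4 folds higher by a factor of 1.5 than the scaling used here. At least 1 called higher region was present at 36 genes (40.9%), against a background of 38.3%, so this share lay near that of all protein-coding genes. A called lower region was present at 2 genes (2.27%), against 5.6%. By the RPKM ratio alone, 48 genes (54.5%, against 45.4%) had a region at least 2-fold higher and 10 (11.4%, against 14.8%) one at least 2-fold lower. The median log2 ratio of RPKM + 1 was 1.87 over the 84 regions, 1.64 over the listed regions at all protein-coding genes and 1.49 over all listed RBBP4 regions.

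**Figure D1:**
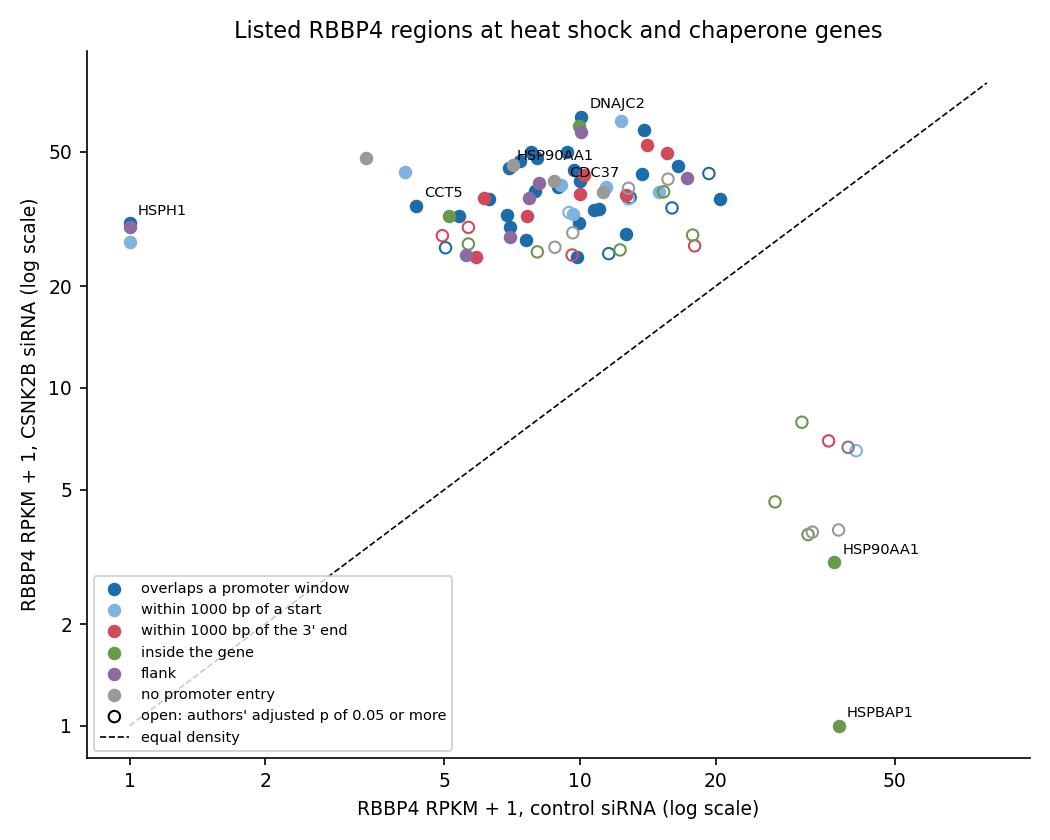
RBBP4 RPKM + 1 at each listed region of a heat shock or chaperone gene, with the control siRNA on the x axis and the CSNK2B siRNA on the y axis, both on log scales; each point is 1 region, filled where the authors' adjusted p was under 0.05. The 74 higher regions lie above the line of equal density and the 10 lower ones below it, with a gap between them because the tables list only regions that differ.

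Higher regions were most frequent at gene starts. Of the 84 regions, 31 overlapped a promoter window of a chaperone gene, and 10 others lay within 1000 bp of a start. Of the rest, 13 lay within 1000 bp of the 3′ end, 12 inside the gene and 8 in the flank. The last 10 belonged to genes without a promoter entry. All 31 at promoter windows were higher with the CSNK2B siRNA, as were 99.7% of the 4105 listed regions that overlap a window of any protein-coding gene. At 0 of the 79 genes did a region at least 2-fold lower overlap a window, against 0.0757% of all genes. A called higher region overlapped a promoter window of 26 of 79 genes (32.9%, against 24.1%), and one lay within 3000 bp of either gene end at 35 of 88 (39.8%, against 29.7%). Inside the genes the direction was mixed, with 7 regions higher and 5 lower. These position classes were chosen after the values were seen.

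Of the HSP90 genes, 2 of 3 had a listed region and both a called higher one. Over all protein-coding genes the shares were 51.6% and 38.3%, which stand beside the count of every role group below. Of the 10341 protein-coding genes with a listed region, 7681 had a called higher one, so most listed genes of any kind did. HSP90AA1 encodes the stress-inducible cytosolic HSP90. At its 3′ end (chr14:102078430-102081640), a region of 3211 bp held 199 reads with the CSNK2B siRNA and 35 with the control, a density 3.92-fold higher (2.73 to 5.79), with adjusted p = 3.55e-13 in the authors' deposited table. It had the most reads of all regions at chaperone genes and was also the widest. The start that lies farthest upstream (chr14:102139611-102140216), which is shared with WDR20, had 32 and 3 reads (7.36-fold, 2.30 to 37.6). At the start whose sequence with the heat shock element is printed above there were 20 and 6 reads (2.30-fold, 0.891 to 7.0), and this region was not called (adjusted p = 0.0631 in the authors' deposited table). Inside the gene, 1 region went the other way with 1 and 12 reads, 17.4-fold lower (adjusted p = 0.0277 in the authors' deposited table).

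HSP90AB1, the constitutive cytosolic HSP90, had 3 called regions, all higher. Its start region (chr6:44246327-44247238) had 29 and 5 reads (4.00-fold, 1.53 to 13.2). The region over its 3′ end (chr6:44253041-44253975) had 40 and 4 reads (6.90-fold, 2.49 to 26.5; adjusted p = 5.68e-06 in the authors' deposited table). Farther on, 883 bp past the end and inside SLC35B2, there were 28 and 4 reads. HSP90B1, the HSP90 of the endoplasmic reticulum, had no listed region with either antibody.

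The HSP90 cochaperones were both called. At AHSA1, an activator of the HSP90 ATPase, the start region shared with VIPAS39 (chr14:77457719-77458072) had 21 and 2 reads (7.24-fold, 1.77 to 63.7). CDC37 had smaller differences from more reads: 42 and 16 at its start (1.81-fold, 0.997 to 3.45), 39 and 18 at its 3′ end (1.49-fold, 0.835 to 2.78) and 21 and 3 at 909 bp from the start (4.83-fold, 1.44 to 25.3). The interval at the CDC37 start reaches just below 1 although its adjusted p was 0.018 in the authors' deposited table, whose scaling puts RBBP4 folds higher by a factor of 1.5. The region at the 3′ end was not called.

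Of the 12 HSP70 genes, 6 had a listed region and all 6 a called higher one; over all protein-coding genes, 51.6% had a listed and 38.3% a called higher region. HSPA8, the constitutive cytosolic HSP70, had 65 and 11 reads in a region of 1895 bp that begins 354 bp past its 3′ end (chr11:123055241-123057135; 4.08-fold, 2.13 to 8.57; adjusted p = 2.2e-06 in the authors' deposited table). Near its start, at 277 bp, it had 23 and 6 reads (2.64-fold, 1.05 to 7.94). HSPA5, the BiP chaperone of the endoplasmic reticulum, had 29 and 6 reads over its 3′ end (chr9:125234762-125235254; 3.33-fold, 1.36 to 9.82) and 18 and 4 reads at 616 bp from that end, with no listed region at its start. HSPA9, the mitochondrial HSP70, had 31 and 9 reads at its start (2.38-fold, 1.10 to 5.67). HSPA13 had 31 and 3 at its start (7.13-fold), HSPA14, a ribosome-associated HSP70, had 15 and 2, and the stress-inducible HSPA6, whose start region lies partly in FCGR2A, had 28 and 4 (4.83-fold, 1.69 to 18.9). The 6 without a listed RBBP4 region were HSPA1A, HSPA1B, HSPA1L, HSPA2, HSPA12A and HSPA12B. HSPA1A and HSPA1B, the main heat-inducible HSP70 genes, are nearly identical copies, and no source used here says how reads that fit both were treated.

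The HSP110 genes HSPH1 and HSPA4, whose products reload HSP70 with ATP, were both called. HSPH1 had 22 reads at its start (chr13:31162206-31162816) with the CSNK2B siRNA and 0 with the control, 5.06-fold higher when the 0 is set to a floor of 3 reads, with a lower 95% bound of 3.78-fold for the reads as counted (adjusted p = 3.78e-05 in the authors' deposited table). HSPA4 had 16 and 3 reads at 612 bp from its start (3.68-fold, 1.05 to 19.7). HSPA4L, another HSP110, and the exchange factor HSPBP1 had no listed RBBP4 region.

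**Figure D2:**
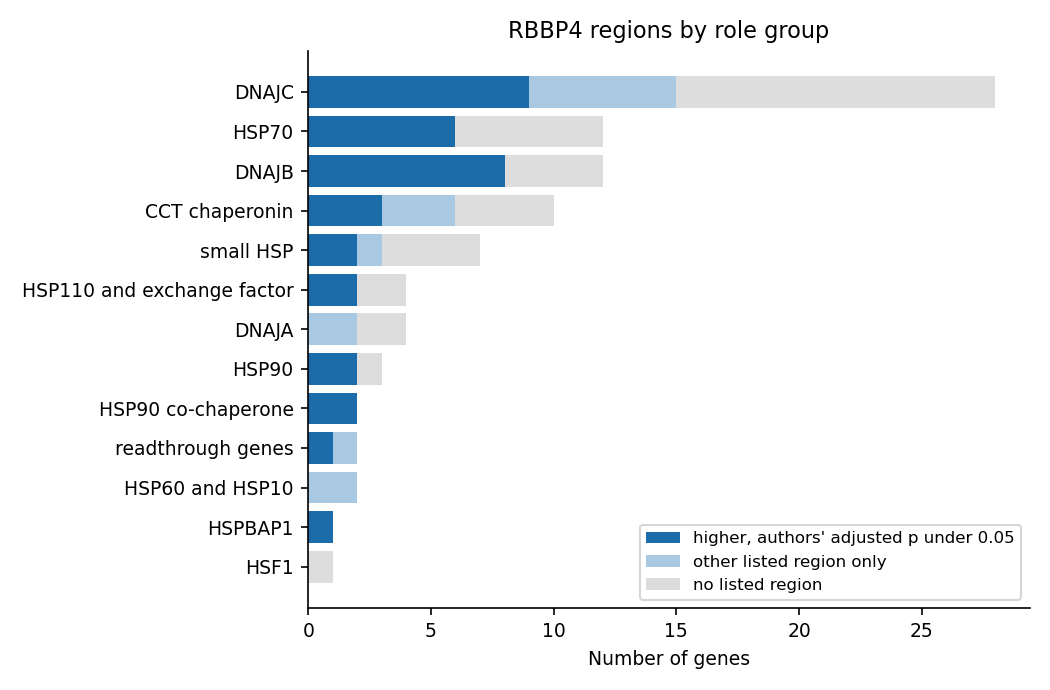
Number of genes in each role group, split into those with a called higher RBBP4 region, those with another listed region only, and those with no listed region. All 8 DNAJB genes and all 6 HSP70 genes with a listed region had a called higher one, while neither listed DNAJA gene did. Among the 10341 protein-coding genes with a listed region, 7681 had a called higher one.

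The J-domain genes, whose proteins hand substrates to HSP70, are taken by class. In DNAJB, 8 of 12 genes had a listed RBBP4 region and all 8 a called higher one, again beside 51.6% and 38.3% of all genes. DNAJB1, the main stress-inducible J-protein of the cytosol, had 112 and 17 reads in a region of 2219 bp over its 3′ end (chr19:14514024-14516242; 4.54-fold, 2.72 to 8.08; adjusted p = 2.5e-10 in the authors' deposited table), and 40 and 11 in the flank beyond it. Its other 3 regions, with 31 and 4, 18 and 2, and 16 and 2 reads, also overlap TECR. DNAJB12, a J-protein of the endoplasmic reticulum membrane, had 31 and 4 reads at its start and 48 and 7 at 445 bp from its 3′ end (4.73-fold, 2.13 to 12.4). DNAJB4 had 58 and 9 reads at one start and 17 and 2 at another, where the region also overlaps FUBP1. DNAJB2, which is prominent in neurons, had 29 and 3. DNAJB6, known for holding back polyglutamine aggregation, had 14 and 2 reads at the promoter printed above and 38 and 4 inside the gene, 21458 bp from a start (6.55-fold, 2.36 to 25.3). DNAJB9, an ER-resident J-protein, had 29 and 6 at the start it shares with THAP5. DNAJB14 (9 and 0) and DNAJB7 (23 and 3, in a region that also overlaps its neighbour ST13) complete the 8, and DNAJB5, DNAJB8, DNAJB11 and DNAJB13 had no listed RBBP4 region.

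In DNAJC, the largest and most varied class, 15 of 28 genes had a listed region and 9 a called higher one. The shares over all protein-coding genes were 51.6% and 38.3%. DNAJC1 had the largest fold of the higher regions with reads in both libraries, 29 and 1 (an interval of 3.32-fold to 817-fold), and 32 and 3 in another region (7.36-fold). DNAJC2, which works at the ribosome, had 20 and 2 reads at its start (6.90-fold, 1.68 to 60.9), in a region that also overlaps PMPCB. DNAJC9, a histone chaperone as well as a J-protein, had 43 and 6 (4.94-fold, 2.10 to 14.2). DNAJC19, of the mitochondrial import motor, had 21 and 2, and DNAJC16 had 31 and 4. DNAJC25 and the readthrough gene DNAJC25-GNG10 share 1 start region, with 32 and 5 reads. DNAJC17 (27 and 7), DNAJC22 (47 and 9) and DNAJC30 (25 and 6) were called too. Higher regions that were not called lay at DNAJC3, DNAJC5B, DNAJC7, DNAJC10, DNAJC13 and DNAJC15, with 10 to 23 reads with the CSNK2B siRNA and 1 to 7 with the control, and the other 13 genes of the class had no listed RBBP4 region. In DNAJA, none was called: the 2 listed genes of 4 had lower reads, with 3 and 14 in the flank of DNAJA2 and 2 and 10 near the start of DNAJA4 (adjusted p = 0.0668 and 0.121 in the authors' deposited table). DNAJC15 held the lower region with the most reads, 7 and 21, inside the gene, which was not called either. Lower regions that were not called also lay at DNAJC13 (2 and 10), DNAJC22 (1 and 9) and DNAJC5B (1 and 8), beside their higher ones.

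The CCT complex was listed for 6 of 10 genes and called higher for 3, beside 51.6% and 38.3% of all genes. CCT3 had 58 and 6 reads at the start it shares with TSACC (6.67-fold, 2.89 to 18.9; adjusted p = 7.3e-08 in the authors' deposited table). CCT5 had 44 and 3 (10.1-fold, 3.24 to 50.9), in a region that also overlaps ATPSCKMT, and CCT7 had 62 and 13 (3.29-fold, 1.79 to 6.52), near the start of PRADC1. TCP1, which encodes the first CCT subunit, had 9 and 1 reads and CCT6A 14 and 3, and neither was called. CCT8L2, a CCT8-like gene, had 3 and 12 and was not called. CCT2, CCT4, CCT6B and CCT8 had no listed RBBP4 region.

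The mitochondrial chaperonin genes HSPD1 (HSP60) and HSPE1 (HSP10) are transcribed away from a shared promoter and share 1 region with the readthrough gene HSPE1-MOB4 (chr2:197499912-197500213). It had 13 and 3 reads (2.99-fold, 0.821 to 16.4) and was not called (adjusted p = 0.089 in the authors' deposited table), and the HSPD1 window it overlaps holds the heat shock elements printed above. Among 7 small heat shock proteins, which hold unfolded proteins without ATP, HSPB1 (HSP27) had 90 and 17 reads in a region of 2356 bp that runs through its 3′ end (chr7:76303229-76305584; 3.65-fold, 2.16 to 6.54; adjusted p = 1.13e-07 in the authors' deposited table) and 29 and 6 at its start. HSPB6 had 20 and 1 (13.8-fold, 2.21 to 572), in a region that overlaps PROSER3, and HSPB7 had 16 and 4, which was not called. Thus 3 of the 7 genes were listed and 2 called higher, beside 51.6% and 38.3% of all genes. HSPB2, HSPB3, HSPB8 and HSPB9 had no listed RBBP4 region. HSPBAP1, which binds HSPB1 and matched only by symbol, had 19 and 4 reads at its start and 0 and 9 inside the gene, 4.35-fold lower against the same floor, with a lower 95% bound of 2.86-fold (adjusted p = 0.028 in the authors' deposited table). HSF1 had no listed region with either antibody.

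Wide higher regions lay at the 3′ ends of several of these genes. A called higher RBBP4 region lay within 1000 bp of the 3′ end at 7 of 79 genes (8.86%, against 2.75%): HSP90AA1, HSP90AB1, HSPA5, HSPA8, HSPB1, DNAJB1 and DNAJB12. Both a promoter window and the 3′ end had one at 4 of these (5.06%, against 1.09%), HSP90AA1, HSP90AB1, HSPB1 and DNAJB12. Without regions within 1000 bp of a start of any protein-coding gene with a promoter entry, the count was 6, against 1.48%. Starts of other genes were not at hand to exclude. With a window of 500 bp the count was 7, against 1.86%. The 14 listed regions there (the 13 above and the HSPB1 region, which is also near its start) had a median width of 961 bp and a median of 39.5 reads, against 499.5 bp and 22 reads at the 3′ ends of all protein-coding genes, so more reads stood behind each, and the part of that depth in the count was not tested. This pattern was noticed in these data, has no replicate, and was given no test. Chaperone genes were also shorter, with a median span of 18237 bp against 24130 bp, which places starts and 3′ ends closer together, as at HSPB1.

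**Figure D3:**
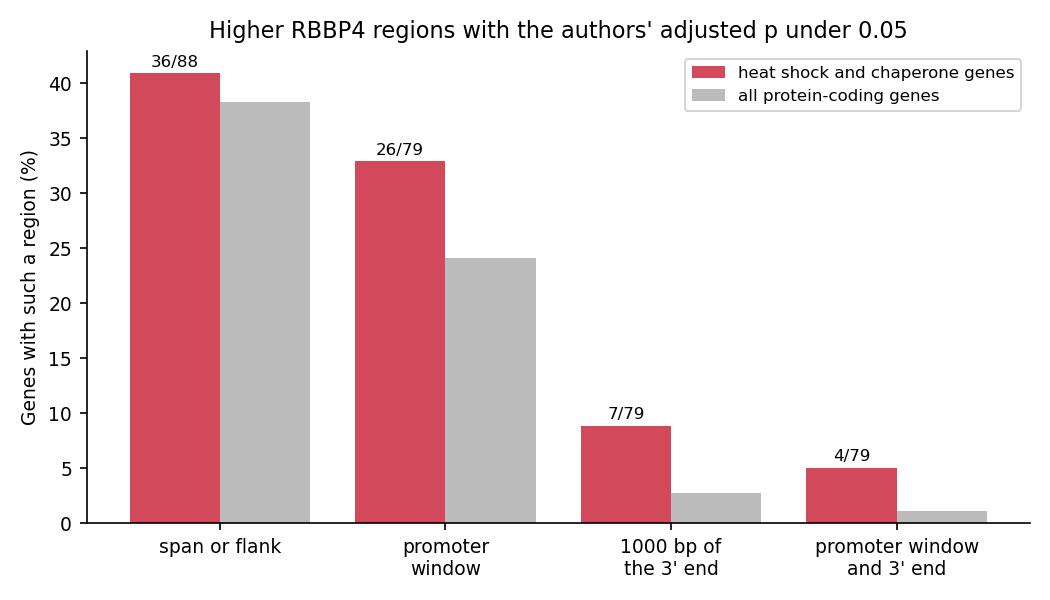
Percentage of genes with a called higher RBBP4 region by place, for heat shock and chaperone genes (red, with the number of genes above each bar) and for all protein-coding genes (grey). The bars are close for the whole span and flank (40.9% and 38.3%) and farther apart at the 3′ end (8.86% and 2.75%).

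**Figure D4:**
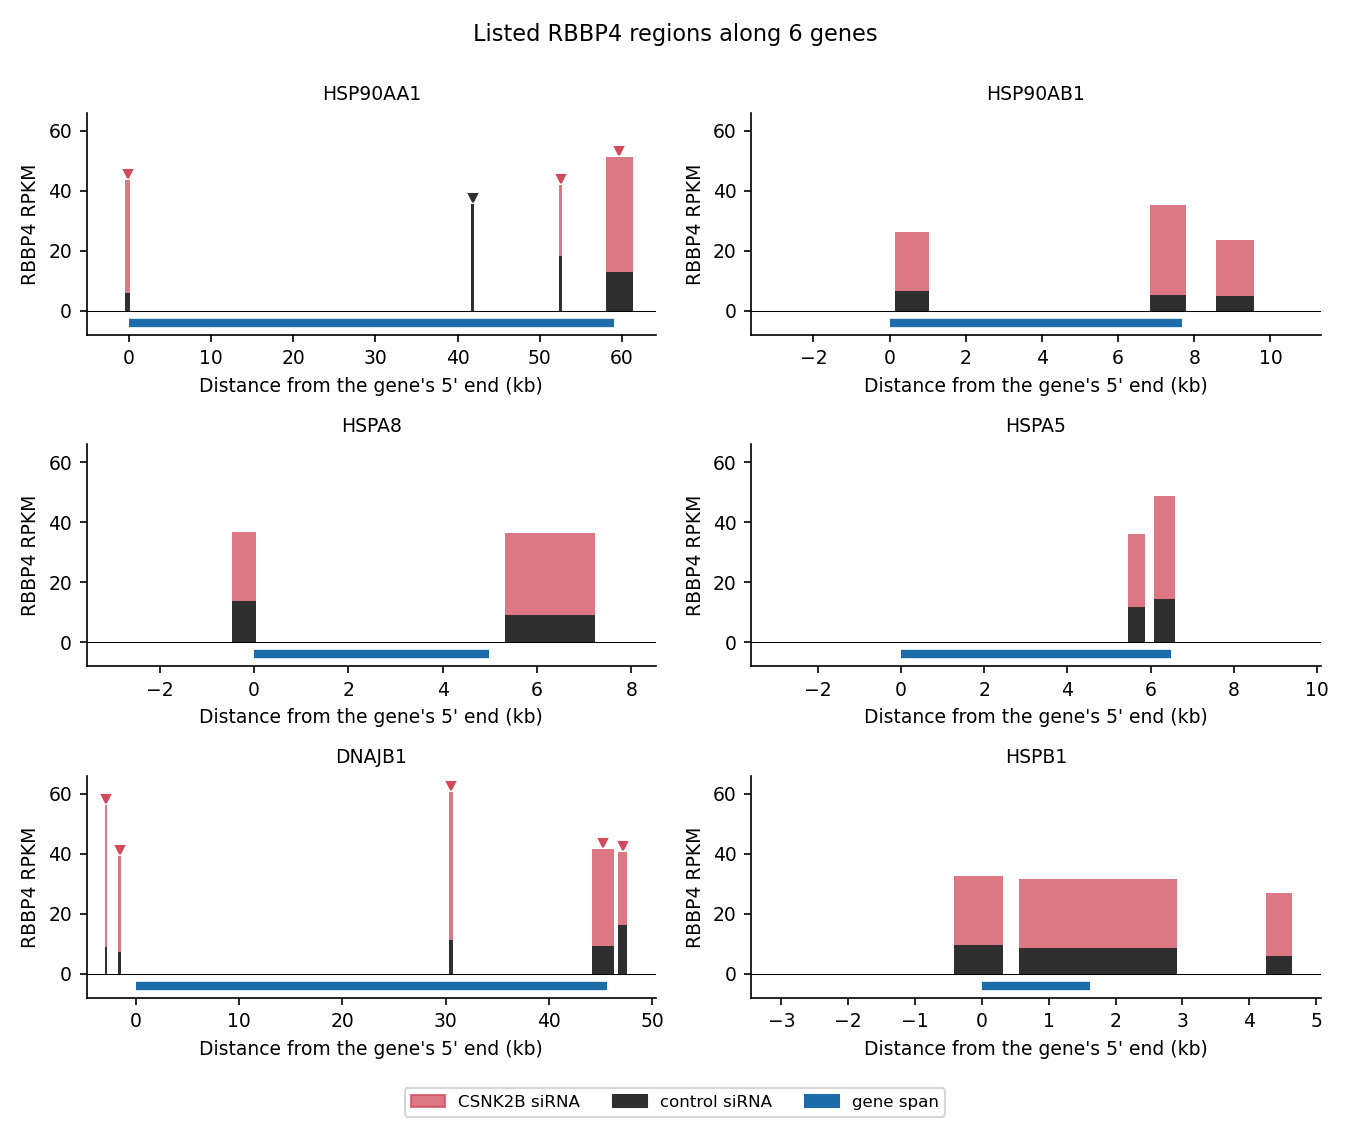
RBBP4 RPKM of the listed regions along 6 genes, against distance from the gene's 5′ end in kb; red bars show the CSNK2B siRNA, black bars in front of them the control, and the blue line the gene span, with triangles marking narrow regions in the 2 longest genes. Each gene has at least 1 higher region at or just past its 3′ end, and the single lower region is the one inside HSP90AA1.

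P300 differed at few chaperone genes, and none of those regions was called. Of the 20496 listed P300 regions, 20 lay at 16 of the 88 genes (18.2%, against 23.6%). At least 2-fold higher regions were found at 8 genes (9.09%, against 11.5%) and at least 2-fold lower ones at 9 (10.2%, against 17.5%), with HSPE1-MOB4 in both. The authors' deposited table has no adjusted p under 0.05 for P300 at any gene (0% of all genes; the smallest is 0.26), while every listed region has an unadjusted p under 0.05. The median log2 ratio was -1.84 over the 20 regions and -1.70 over all listed P300 regions. Read numbers were small, with a median of 11 per region when both libraries are added, so the intervals are wide.

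The region with the most P300 reads was at the start of DNAJC2 (chr7:103344537-103344728), with 21 reads with the CSNK2B siRNA and 6 with the control (4.04-fold, 1.58 to 12.2; adjusted p = 0.268 in the authors' deposited table). It was the only P300 region at a promoter window of a chaperone gene (1 of 79 genes, 1.27%, against 0.36%) and the only one that overlapped a listed RBBP4 region, by 26 bp. Both of these regions also overlap PMPCB. Inside HSP90AA1, P300 reads were 14 and 1 (16.2-fold, 2.46 to 684), away from its RBBP4 regions. CCT6B had 16 and 1 (18.5-fold, 2.87 to 775), HSPA14 had 15 and 3, DNAJC1 had 13 and 3, HSPBAP1 had 9 and 1 and DNAJC18 had 9 and 0. Lower P300 regions were all of 12 reads or fewer. DNAJC6 (auxilin, which uncoats clathrin vesicles) had 3 of them, with 0 and 7, 2 and 9, and 2 and 9 reads. HSPA4L had 0 and 8, DNAJC5, a J-protein of synaptic vesicles, had 0 and 7, DNAJC3 had 1 and 9, HSPH1 had 2 and 9, and DNAJC13 had 2 and 10. In all, 10 genes were listed for both antibodies (19.6% of the 51 for RBBP4 and 62.5% of the 16 for P300) and 31 for neither. For comparison, 58.0% of the 88 genes and 51.6% of all protein-coding genes were listed for RBBP4, and 18.2% and 23.6% for P300. The overlap of the antibodies, by gene or by region, was not counted over all protein-coding genes.

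**Figure D5:**
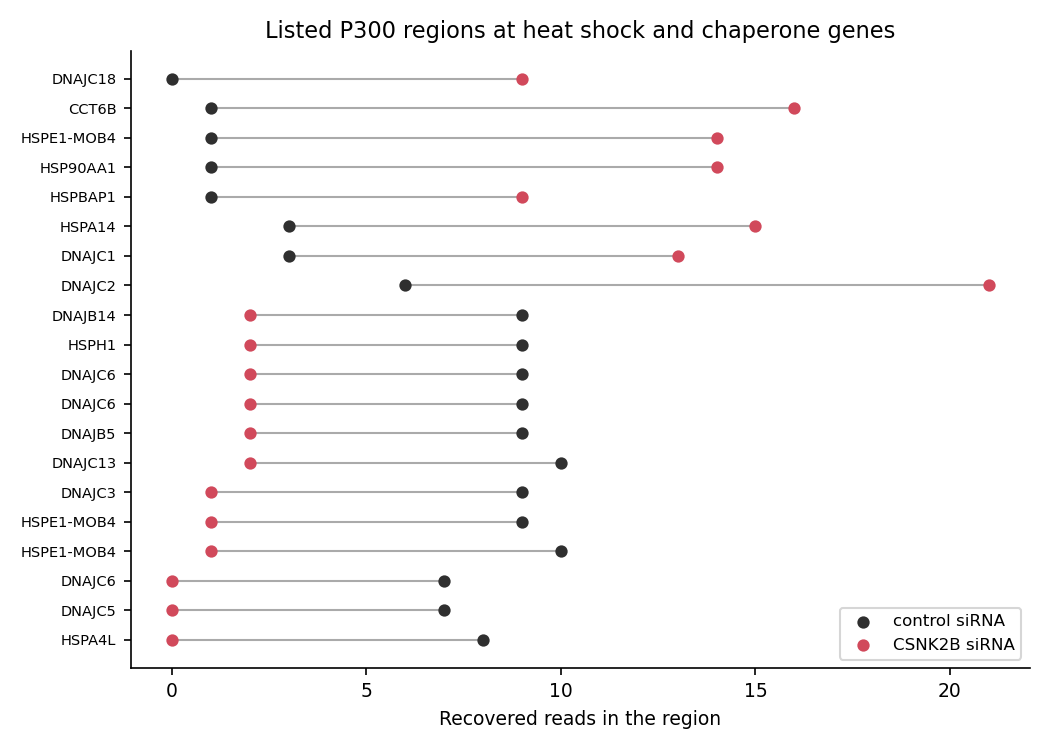
Recovered P300 reads in the control library (black) and the CSNK2B siRNA library (red) at the 20 listed regions of heat shock and chaperone genes, 1 line per region. All regions hold 27 reads or fewer over both libraries, and 12 of the 20 are lower with the CSNK2B siRNA.

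Partner genes of the chaperone network had called higher RBBP4 regions at a share near that of all protein-coding genes. Of 64 listed partners, 62 were matched, 33 had a listed RBBP4 region, and 27 a called higher one (43.5%, against 38.3% of all protein-coding genes), with 2 called lower. In the unfolded protein response, 4 of 6 genes were called higher, among them its sensor and transcription factor ATF6 with 68 and 3 reads (15.6-fold, 5.13 to 77.7; adjusted p = 1.97e-11 in the authors' deposited table), and the kinase EIF2AK3 (PERK) with 19 and 1. For ER folding it was 5 of 12, with 63 and 4 reads at the lectin chaperone CALR and 24 and 1 at the disulfide isomerase P4HB. Mitochondrial proteases and import were called higher at 6 of 8 genes, including the proteases LONP1 (57 and 4) and YME1L1 (53 and 4). HSP70 and HSP90 cofactors were called higher at 8 of 21 genes, for example STUB1, the CHIP ubiquitin ligase, with 23 and 2. CDC37L1, a CDC37 paralogue, was called lower with 8 and 30 reads. Other heat shock factors were called higher at 2 of 5 genes, with 41 and 5 reads at HSF4. Prefoldin, which passes substrates to CCT, was called higher at 2 of 8 genes, and the crystallin small heat shock genes at 0 of 2. For P300, 11 of the 62 had a listed region and none was called.

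Several chaperone regions cannot be assigned to 1 gene. Of the 84 RBBP4 regions, 23 also overlap a protein-coding gene outside the set. Another 1000 bp criterion, a start of another protein-coding gene with a promoter entry, was met by 19. Not all of these neighbours are named above. Without regions over other genes, 26 of 88 chaperone genes had a called higher RBBP4 region, against 29.9% of all genes. At a promoter window, 18 of 79 had one, against 17.3%.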

How the data were processed

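RBBP4 and P300 ChIP-seq libraries (paired-end 150 bp reads) were grouped by antibody and siRNA from the labels. The submitters' processing notes name the build GRCh38 and, without roles or order, DiffBind (version 3.4.11), MACS2 (version 2.2.7.1), ChIPseeker (version 1.28.3), Bowtie2 (version 2.4.5), Trim Galore (version 0.6.7) and FastQC. Per the file headers, the authors deposited, for each listed region, RPKM per library, a log2 fold change, log2 CPM, a p-value and an adjusted p-value. RPKM values were turned back into reads from each region's width and the value of 1 read. They came out whole within 0.01 for 98.3% (RBBP4) and 99.4% (P300) of regions, and for 596 and 132 the width was solved instead. RPKM was taken to be relative to reads in the tested regions, an inference from the value of 1 read, and p-values compare 2 libraries. A beta-binomial test of the recovered reads with a dispersion of 0.01 gave the authors' RBBP4 p-value within 1% for 88.6% of 34234 regions, so the deposited p-values assume little spread between samples. Recovery was tested on simulated data.

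Regions were joined to RefSeq gene spans (GRCh38.p14) extended by 3000 bp. Strands, starts and sequences came from the RefSeq promoter table, in which HSF1, CCT6A, HSPA14, HSPA12B, HSPB2, DNAJC1, DNAJC5B, DNAJC22 and DNAJC24 were not matched. RPKM ratios used a pseudocount of 1, and a region with 0 reads a floor of 3 reads over that library. Members, role groups and partner lists (GRPEL1 and GRPEL2 unmatched) were chosen with earlier results of these data known. Reads are printed for the central genes of each role group, for up to 10 regions per antibody and direction with the largest ratio at or above the median level, and for up to 4 genes per role group; further regions were named after their values were seen and did not enter the promoter ranking. Promoters were ranked by reads among the start regions that this rule chose, and only the first 2 were printed. Alternatives changed the flank, position, overlap, read minimum, pseudocount, scaling, threshold, dispersion and gene set. Python 3.11.15, pandas 2.3.3 and scipy 1.17.1 were used. The input libraries were not used here.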

Additional observations from a re-analysis of the deposited data

How the results depend on the processing

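The count of 36 of 88 genes with a called higher RBBP4 region stayed between 26 and 36 under 12 alternatives. The 26 came without regions over other genes (against 29.9% of all genes). With a dispersion of 0.04 the count was 29 (against 29.3%). The alternatives of pseudocount and fold change scaling are among the 12 but could not alter a count of called genes, which rests on the deposited adjusted p. At 3′ ends the count of 7 of 79 genes ranged from 6 (against 1.48% of all genes) to 10 under 6 alternatives. The 10 came with a window of 3000 bp, where the share of all genes was 6.43%. At promoter windows the count of 26 of 79 genes became 18 to 25 under 4 alternatives, against 16.2% to 18.6% of all genes. These alternatives at 3′ ends and promoter windows were all chosen after seeing the data. The 2 called lower RBBP4 genes fell to 0 within 3000 bp of either gene end, with at least 20 reads, with adjusted p under 0.01 or with a dispersion of 0.04, and to 1 without readthrough genes and non-chaperones. For the counts of 0, in that order, the shares of all genes were 0.909%, 0.938%, 0.459% and 1.73%. At 4-fold, 27 of the 88 genes were higher for RBBP4 instead of 48, against 28% of all genes. The 10 at least 2-fold lower became 4 near gene ends (against 2.82% of all genes) and 1 with at least 20 reads (against 2.79%). For P300, the 8 higher became 4 near gene ends (against 2.39%) and 1 with at least 20 reads (against 1.39%). They became 5 without regions over other genes (against 10.7%). The 9 lower became 1 near gene ends (against 3.58%), 0 with at least 20 reads (against 1.76%) and 5 at 4-fold (against 11.1%). The RBBP4 median log2 ratio of 1.87 became 1.66 with no flank, 1.99 near gene ends, 2.04 with at least 20 reads, 1.51 with a pseudocount of 5, 2.55 with the authors' log2 fold change and 1.75 without regions over other genes. The P300 median of -1.84 became -1.95 with a pseudocount of 0.1, -1.49 with 5 and -2.33 with the authors' values, and reversed to 2.23 near gene ends (5 regions) and 1.98 with at least 20 reads (1 region), where few regions were left. Of 505 values for 57 single regions, 504 kept direction and size within their interval and 0 reversed. The 3′ end of HSP90AA1 moved from 1.89 to 2.55 with the authors' scaling. Only the pseudocounts and the authors' scaling could alter such a value. The other settings keep or drop a region and leave its ratio as it was, so most of the 504 were bound to stay. No paired analysis was possible because each group holds 1 library and the labels carry no replicate numbers. Few reads limit precision throughout, most of all for P300.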
